A study of Homo sapiens with 9 samples.

Results

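The genes described here form the LIF and IL6 cytokine axis. They are the ligands LIF, IL6, IL11 and CLCF1, the receptor chains IL6ST, LIFR, OSMR and IL6R, the transcription factor STAT3 and its feedback inhibitor SOCS3. These 10 genes were taken by name from the 58735 genes of the count table. No measured value entered the rule, but the genes were chosen by hand with earlier results of these data known. Gene-level RNA-Seq read counts were available for MIA PaCa-2, an established pancreatic cancer cell line whose genotype is given as WT. Cells had been kept for 24 h in 0.1% DMSO, in 1 μM SCH772984 (an inhibitor of the kinases ERK1 and ERK2) or in 1 μM compound 1 (an inhibitor of the kinases TBK1 and IKKε), with 3 libraries per group. The comparisons ask what ERK inhibition and TBK1-IKKε inhibition change in these cells, each against DMSO and against each other. All groups share 1 cell line, 1 culture medium and 1 time point, each inhibitor was used at 1 dose, and the culture holds no stromal or immune cells, so nothing here describes a tumor. RNA was measured, whereas phosphorylated STAT3 and secreted cytokine were not analysed here.

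Library totals were 9464432 to 10286223 counts with DMSO, 9652741 to 9840769 with compound 1 and 11056977 to 13887859 with SCH772984. No source used here says that the replicates were separate cultures, so the p-values measure only the spread between these libraries. Compound 1 replicate 1 stood apart from its group. Its counts differed from those of replicates 2 and 3 by a chi-square per degree of freedom of 10.1 and 7.61, compared with 2.66 between replicates 2 and 3, 2.34 to 3.15 among DMSO libraries and 4.03 to 6.40 among SCH772984 libraries. Mitochondrially encoded transcripts took 6.23% to 7.52% of counts with SCH772984, 3.33% to 3.98% with DMSO and 3.41% to 3.92% with compound 1. Of the epithelial and duct markers, KRT8, KRT18, KRT19 and SOX9 were well counted, whereas EPCAM and CFTR had 0 counts in every library and CDH1 and KRT7 had at most 5. The summed level of these 9 markers was 1174 to 1383 CPM (counts scaled to library size) with SCH772984, compared with 3629 to 3890 CPM with DMSO and 3120 to 3829 CPM with compound 1. KRT8 and KRT18 make up most of that sum. Of the 5 markers tested against DMSO, KRT8, KRT18 and SOX9 were called lower with SCH772984, compared with 35.5% of all genes tested. MUC1 was called higher (log2 2.77 ± 0.18, edgeR adjusted p = 1.05e-13), compared with 37.2% of all genes tested, and KRT19 was not called (log2 0.11 ± 0.07). The summed level of 9 fibroblast markers was 1041 to 1169 CPM, compared with 470 to 520 CPM and 478 to 535 CPM, with FAP at 0 counts and DCN and LUM at no more than 1. Most of it was COL1A2. Of the 5 fibroblast markers tested against DMSO, COL1A1, COL1A2, COL3A1 and PDGFRB were called higher with SCH772984 and 0 lower. Over all genes tested, 37.2% were called higher and 35.5% lower. COL1A1 and PDGFRB passed the filter only through the SCH772984 libraries. Leukocyte markers summed to 2.45 to 5.19 CPM over all libraries, with PTPRC and CD3E at 0, and endothelial markers to 2.89 to 4.53 CPM with DMSO, 6.23 to 6.82 CPM with compound 1 and 0 to 0.539 CPM with SCH772984. The endothelial sum was almost entirely CDH5 (3.88, 6.45 and 0.117 CPM on average), with PECAM1, VWF, KDR and TEK at no more than 4 counts in any library. The part of these shifts in the results for SCH772984 was not tested. Every library came from the same cell line, so these sums describe RNA of that line and do not count cells of other types. Within the line, a change per cell and a change in the share of cells holding the RNA cannot be told apart in bulk.

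Cytokines of this family act through a shared receptor chain, gp130, which IL6ST encodes. LIF pairs gp130 with LIFR, oncostatin M pairs it with LIFR or OSMR, and IL6 and IL11 first bind chains of their own, IL6R and IL11RA. CLCF1 binds CNTFR before gp130 and LIFR. JAK kinases held by these chains phosphorylate STAT3, which moves to the nucleus and switches on genes such as SOCS3, and the SOCS3 protein binds gp130 and the kinases and shuts the signal off. In pancreatic cancer LIF and IL6 are known as signals exchanged between tumor cells and the surrounding stroma.

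Promoter windows were taken from RefSeq (GRCh38.p14), 250 bases before to 50 after an annotated start, and 8 of the 10 genes matched, all except LIF and CLCF1. The 250 bases upstream of IL11 are printed first because IL11 was the only ligand among the 10 genes that rose with SCH772984. The window lies at chr19:55370464-55370713 on the minus strand, and its capitals mark an AP-1 match (TGANTCA, N being any base) that begins 96 bases before the start.
IL11: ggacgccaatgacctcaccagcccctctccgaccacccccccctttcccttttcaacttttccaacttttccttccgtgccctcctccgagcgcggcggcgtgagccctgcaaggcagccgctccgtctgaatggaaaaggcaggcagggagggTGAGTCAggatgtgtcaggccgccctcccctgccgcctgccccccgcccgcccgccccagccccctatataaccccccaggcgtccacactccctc

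5 short motifs were searched on both strands in these windows and in all 35116 windows of the same length. The AP-1 letters were in 7.71% of all windows, the CRE letters TGACGTCA in 1.85%, the ETS letters CCGGAAGT in 4.14% and the STAT letters TTCNNNGAA in 7.66%. The NF-kB letters, GGGA and TTCC with 2 bases between them, were in 1.61%. The AP-1, CRE and STAT letters read the same on both strands, and no matches of different motifs overlapped. Each site below is shown with up to 10 bases on either side and with the match in capitals, because these are the places where a window of the 10 genes held one of the motifs. The AP-1 sites lie at chr5:38846005-38846031 on the plus strand for OSMR and at chr1:154405370-154405392 on the plus strand for IL6R. The NF-kB site of IL6 lies at chr7:22727117-22727146 on the plus strand. LIFR has RefSeq windows at several starts, and its STAT matches lie at chr5:38595552-38595580 and chr5:38557631-38557659, both on the minus strand.
OSMR, AP-1 from base 4 after the start: gccccgcagcTGATTCAtagccccggc
IL6R, AP-1 from base 38 after the start: tccgccgctcTGAGTCAtgtgcg
IL6, NF-kB from 73 bases before the start: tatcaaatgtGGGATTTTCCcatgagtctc
LIFR, STAT from 165 bases before one start: ccattactagTTCCTTGAAccacaatcca
LIFR, STAT from 182 bases before another start: gctttggagtTTCATCGAAaggtctttaa

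With AP-1 letters in their windows, IL11 rose while OSMR and IL6R fell with SCH772984, so genes with the same match moved in both directions, the upward one resting on IL11 alone. IL11 passed the filter only through the SCH772984 libraries, and its call was lost when any of 3 single libraries was left out. The windows of IL6ST, STAT3 and SOCS3 held none of the 5 motifs, which says only that these letters are not in those windows. No binding was measured.

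With ERK inhibition, the RNA of the ligands LIF and CLCF1, of the receptor chains OSMR and IL6R and of the inhibitor SOCS3 fell, and that of STAT3 and IL11 rose. LIF showed the greatest change of the 10 genes, 13.5-fold. IL6ST and LIFR, the chains that form the LIF receptor, did not pass the test, and IL6 had 0 counts in every library. In edgeR's quasi-likelihood test with Benjamini-Hochberg adjustment over 13834 genes, called at an adjusted p under 0.05, 9 of the 10 genes could be tested, 2 were higher, 5 were lower and 2 were not called. Of all genes tested, 37.2% were called higher and 35.5% lower (5150 and 4916 genes, or 6242 and 3911 when scaled by library size alone), so most genes tested were called and the share called among these 9 is near that background. The median log2 fold change was −0.55 over the 9 genes and 0.03 over all genes, the latter being 0.20 with library-size scaling. All SCH772984 libraries lay above all DMSO libraries for 2 of the 10 genes and below for 6, compared with 36.8% and 37.4% of all genes tested.

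LIF (ENSG00000128342, chr22:30240447-30246851, minus strand on hg38) encodes leukemia inhibitory factor. It had 627, 527 and 618 counts in DMSO replicates 1 to 3, 655, 578 and 693 with compound 1 and 59, 50 and 73 with SCH772984. As CPM scaled by trimmed means (TMM), the levels were 64.7, 58.6 and 68.2 with DMSO, 69.8, 60.7 and 71.9 with compound 1 and 4.88, 4.08 and 4.92 with SCH772984. The DMSO and compound 1 libraries overlapped, and all 3 SCH772984 libraries lay far below both. Against DMSO, the log2 fold change with SCH772984 was −3.76 ± 0.12 (SE, 95% CI −4.00 to −3.52, edgeR adjusted p = 9.60e-30). LIF ranked 23 from the lowest of the 13834 log2 fold changes, and only 0.159% of genes fell further on this scale. LIF shares 92 exonic bases with the antisense gene LIF-AS1 and 175 with AC004264.1, and the strand setting of the counting is not given in the sources used here, so reads from the shared bases cannot be told apart. These neighbors had 2 to 14 and 1 to 13 counts per library.

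CLCF1 (ENSG00000175505, chr11:67364168-67374177, minus strand), cardiotrophin-like cytokine factor 1, fell by less. Its counts were 137, 129 and 126 with DMSO, 130, 141 and 112 with compound 1 and 30, 42 and 67 with SCH772984. Every SCH772984 library was below every other library, while DMSO and compound 1 overlapped. The level was 14.1 ± 0.223 CPM with DMSO and 3.48 ± 1.02 CPM with SCH772984 (SD, n = 3 each), a 3.95-fold difference (log2 fold change −1.98 ± 0.19, edgeR adjusted p = 6.16e-13).

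IL11 (ENSG00000095752, chr19:55364389-55370463, minus strand), a cytokine known for roles in fibrosis and platelet formation, was the only one of the 4 ligand genes to move upward. It had 9, 8 and 15 counts with DMSO, 8, 10 and 10 with compound 1 and 23, 26 and 43 with SCH772984. The SCH772984 libraries lay above all others, but the counts were low and IL11 passed the filter only through that group. The log2 fold change was 1.02 ± 0.36 (95% CI 0.29 to 1.76, edgeR adjusted p = 0.0110). The call was lost without SCH772984 replicate 3 (0.82, adjusted p = 0.0793), without DMSO replicate 1 (0.86, adjusted p = 0.0647) and without DMSO replicate 2 (0.85, adjusted p = 0.0629), all by the same edgeR test. IL6 (ENSG00000136244, chr7:22725884-22732002, plus strand) had 0 counts in all 9 libraries. A count of 0 allows up to 3 counts per library, or 0.202 to 0.334 CPM, which covers counting error only.

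**Figure D1:**
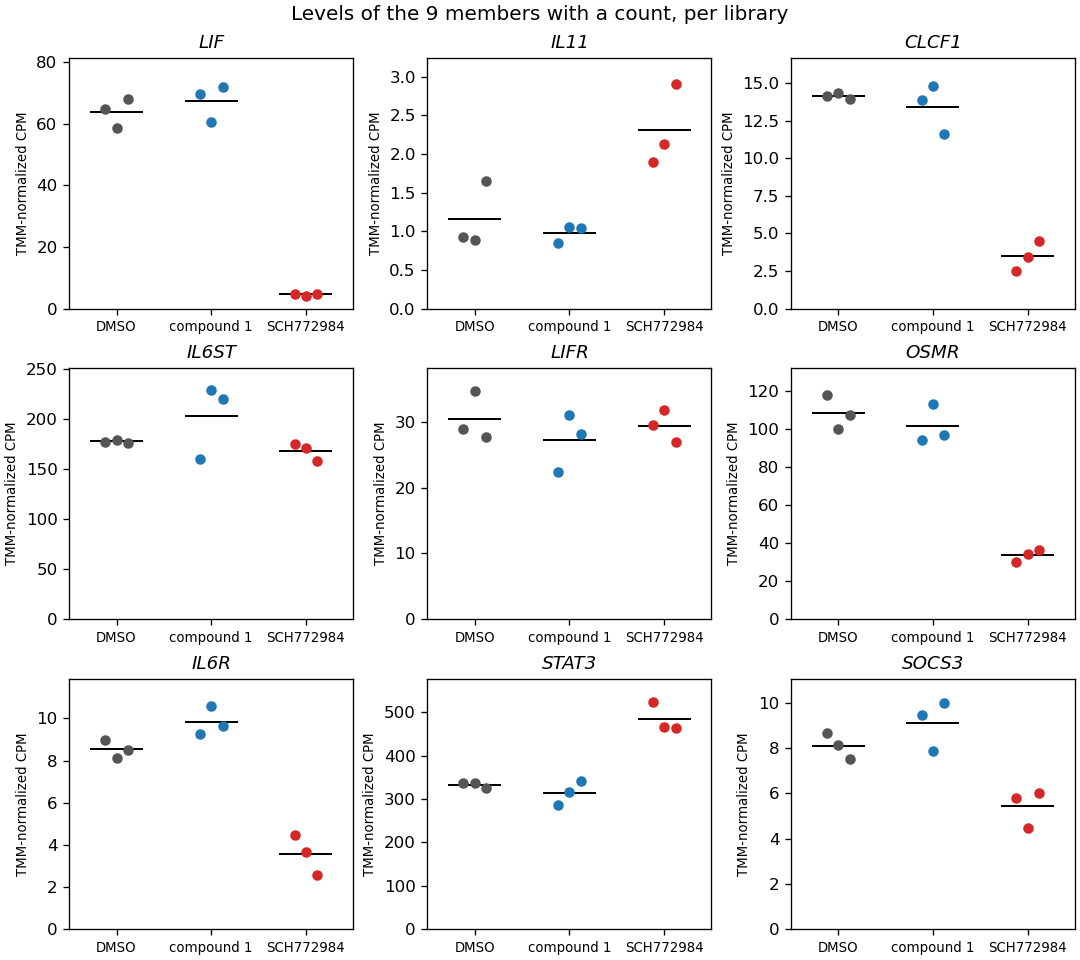
TMM-normalized CPM (y axis, linear from 0) of the 9 genes that had a count, by treatment group, with each point a library and each line the mean of 3. LIF, CLCF1, OSMR and IL6R sit far lower in the 3 SCH772984 libraries, and STAT3 and IL11 sit higher. IL6ST and LIFR were not called against DMSO. Compound 1 replicate 1 is the lowest of its group for IL6ST, LIFR, OSMR, IL6R, IL11 and STAT3.

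The receptor chains split. OSMR and IL6R fell with SCH772984, whereas neither chain of the LIF receptor passed the test. OSMR (ENSG00000145623, chr5:38845858-38945596, plus strand), the oncostatin M receptor chain, had 1143, 898 and 975 counts with DMSO, 888, 1077 and 932 with compound 1 and 363, 422 and 539 with SCH772984. In CPM these were 118, 99.9 and 108 with DMSO and 30.0, 34.5 and 36.3 with SCH772984, with no overlap. OSMR was thus 3.18-fold lower (log2 fold change −1.67 ± 0.08, edgeR adjusted p = 2.32e-22). OSMR shares 229 exonic bases with RICTOR on the opposite strand, which had 153 to 241 counts in the DMSO and compound 1 libraries and 413 to 527 with SCH772984.

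IL6R (ENSG00000160712, chr1:154405193-154469450, plus strand), which binds IL6 before gp130 joins, was counted less deeply. It had 87, 73 and 77 counts with DMSO, 87, 101 and 93 with compound 1 and 54, 45 and 38 with SCH772984. The SCH772984 libraries were the lowest of the 9, and the change was 2.38-fold (log2 fold change −1.25 ± 0.21, edgeR adjusted p = 1.04e-06).

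IL6ST (ENSG00000134352, chr5:55935095-55994993, minus strand), the gp130 chain, had more counts than any of the 10 genes but STAT3. It had 1721, 1613 and 1595 counts with DMSO, 1502, 2179 and 2118 with compound 1 and 2115, 2097 and 2354 with SCH772984. In CPM the DMSO libraries were at 178, 179 and 176, and the SCH772984 libraries at 175, 171 and 159, all slightly lower. The log2 fold change was −0.06 ± 0.06 (95% CI −0.19 to 0.07, edgeR adjusted p = 0.429), and its sign depended on the scaling, at 0.12 with library-size scaling and 0.02 with only genes of at least 10 counts in every library.

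LIFR (ENSG00000113594, chr5:38474963-38608354, minus strand), the other chain of the LIF receptor, had 281, 312 and 251 counts with DMSO, 210, 296 and 272 with compound 1 and 357, 390 and 400 with SCH772984. The CPM values of 29, 34.7 and 27.7 with DMSO overlapped those of 29.5, 31.9 and 27.0 with SCH772984. The log2 fold change was −0.03 ± 0.10 (95% CI −0.24 to 0.18, edgeR adjusted p = 0.813), and it was 0.15 with library-size scaling, again without a call.

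STAT3 (ENSG00000168610, chr17:42313324-42388568, minus strand), the transcription factor of this pathway, rose. Its counts were 3271, 3035 and 2940 with DMSO, 2693, 3010 and 3282 with compound 1 and 6319, 5717 and 6866 with SCH772984. Part of that difference was depth, since the CPM values were 337, 338 and 325 with DMSO and 523, 467 and 463 with SCH772984. The SCH772984 libraries still lay above every other library, 1.47-fold above DMSO (log2 fold change 0.56 ± 0.06, edgeR adjusted p = 3.98e-11), and of all genes tested 29.1% had a higher log2 fold change.

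SOCS3 (ENSG00000184557, chr17:78356778-78360077, minus strand), which STAT3 is known to induce, moved the other way. It had 84, 73 and 68 counts with DMSO, 89, 75 and 96 with compound 1 and 70, 55 and 89 with SCH772984. In CPM the SCH772984 libraries, at 5.79, 4.49 and 6.0, were below the DMSO libraries at 8.67, 8.12 and 7.51. The log2 fold change was −0.55 ± 0.19 (edgeR adjusted p = 0.00768), and with library-size scaling it was −0.38 and no longer called (adjusted p = 0.0649). STAT3 and SOCS3 thus differed in direction with SCH772984, on the RNA level.

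**Figure D2:**
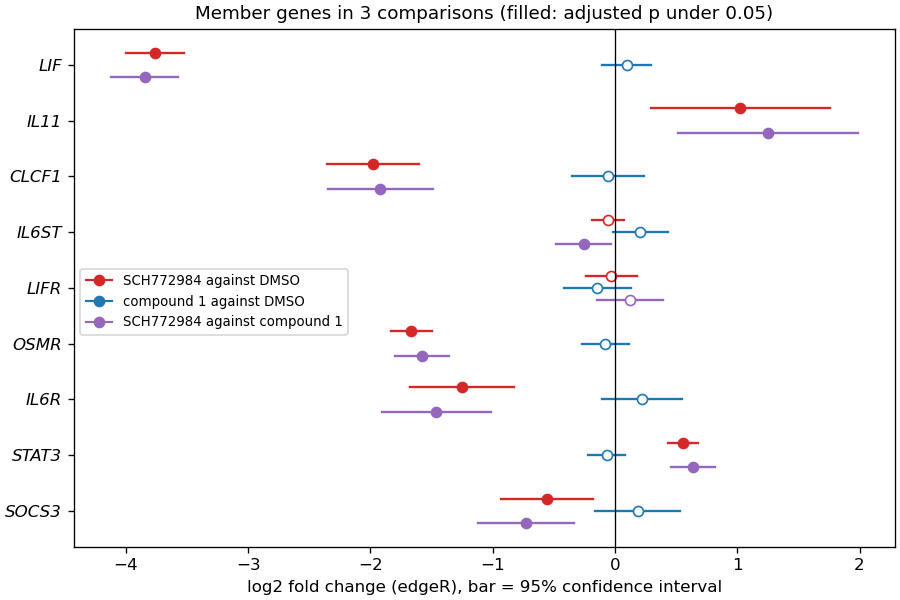
Log2 fold changes from edgeR (x axis) with 95% confidence intervals as bars for the 9 genes with a count in the 3 comparisons, filled where the adjusted p was under 0.05. SCH772984 gives filled points from −3.76 (LIF) to 1.02 (IL11) against DMSO, whereas all compound 1 points against DMSO are open and IL11 could not be tested there.

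TBK1-IKKε inhibition with compound 1 left none of the 10 genes called. LIF stood at 67.5 ± 5.97 CPM with compound 1 and 63.9 ± 4.84 CPM with DMSO (SD, n = 3 each), STAT3 at 315 ± 27.0 and 333 ± 7.55 CPM, and SOCS3 at 9.11 ± 1.09 and 8.10 ± 0.580 CPM. Of 8 genes tested, 0 passed edgeR's quasi-likelihood test with Benjamini-Hochberg adjustment, 0 passed at an unadjusted p under 0.05, and 0 passed by DESeq2. Among 12849 genes tested, 0.490% were called higher and 0.374% lower (63 and 48 genes, or 85 and 25 with library-size scaling), and at an unadjusted p 7.35% were higher and 7.69% lower. The median log2 fold change was 0.02 over the 8 genes and 0.00 over all genes. In 1 gene, IL6R, every compound 1 library (9.27, 10.6 and 9.66 CPM) lay above every DMSO library (8.98, 8.12 and 8.5 CPM), and in 0 genes below, compared with 9.37% and 12.1% of all genes tested.

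The intervals show which sizes the test leaves possible for the ligands and STAT3. LIF changed by a log2 value of 0.10 ± 0.09 (95% CI −0.10 to 0.29, edgeR adjusted p = 0.684). CLCF1 changed by −0.06 ± 0.14 (95% CI −0.35 to 0.23, edgeR adjusted p = 0.887), and IL11 had too few counts to test. STAT3 changed by −0.07 ± 0.07 (95% CI −0.22 to 0.08, edgeR adjusted p = 0.711). For each of the 3 genes, the log2 fold change measured with SCH772984 lies outside its interval with compound 1.

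SOCS3, IL6R, OSMR and LIFR were not called either. SOCS3 had a log2 fold change of 0.18 ± 0.17 (95% CI −0.17 to 0.54, edgeR adjusted p = 0.650) and IL6R one of 0.22 ± 0.15 (95% CI −0.11 to 0.55, edgeR adjusted p = 0.544). For OSMR it was −0.08 ± 0.09 (95% CI −0.27 to 0.11, edgeR adjusted p = 0.729), and for LIFR −0.14 ± 0.13 (95% CI −0.42 to 0.13, edgeR adjusted p = 0.652). The first pair had estimates above 0 and the second below, and each interval held 0.

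IL6ST was the gene whose result with compound 1 rested on 1 library. Compound 1 replicate 1, the library that stood apart, was at 160 CPM, below all DMSO libraries, and replicates 2 and 3 were at 229 and 220 CPM, above them. The log2 fold change over all libraries was 0.21 ± 0.11 (edgeR adjusted p = 0.370). Without compound 1 replicate 1 it was 0.35 ± 0.06 (edgeR adjusted p = 3.89e-05), and without any other single library it was 0.11 to 0.21 and not called. Leaving out that library also raised the number of genes called in the whole table, to 453 higher and 798 lower.

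SCH772984 was also set directly against compound 1, which asks where the inhibitors differ. LIF, CLCF1, OSMR, IL6R and SOCS3 were lower with SCH772984 than with compound 1, and STAT3 and IL11 were higher. This comparison and those with DMSO share libraries, so they are not independent of each other. By edgeR's test with Benjamini-Hochberg adjustment over 13863 genes, 9 genes were tested, 2 were higher, 6 lower and 1 not called, compared with 33.7% and 32.6% of all genes. The median log2 fold change was −0.73 over the 9 genes and 0.03 over all genes. The SCH772984 libraries lay entirely above for 2 genes and entirely below for 5, compared with 34.7% and 34.6% of all genes tested.

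The difference in LIF was 14.4-fold (log2 −3.85 ± 0.13, edgeR adjusted p = 3.10e-15), and in CLCF1 3.78-fold (log2 −1.92 ± 0.21, edgeR adjusted p = 6.21e-08). OSMR was 2.99-fold lower (log2 −1.58 ± 0.11, edgeR adjusted p = 4.97e-11) and IL6R 2.76-fold lower (log2 −1.46 ± 0.21, edgeR adjusted p = 4.56e-06). SOCS3 differed by −0.73 ± 0.19 on the log2 scale (edgeR adjusted p = 0.00189), a call that held under library-size scaling. All 5 of these genes had also been called lower against DMSO. STAT3 was 1.55-fold higher (log2 0.64 ± 0.09, edgeR adjusted p = 1.62e-06) and IL11 2.38-fold higher (log2 1.25 ± 0.35, edgeR adjusted p = 0.00395), although IL11 passed the filter here too only through the SCH772984 libraries. IL6ST was called lower by −0.26 ± 0.11 (edgeR adjusted p = 0.0442), with compound 1 replicate 1 inside the SCH772984 range. That call was lost with 10 of 16 alternatives, among them library-size scaling (−0.12, edgeR adjusted p = 0.356) and leaving out any library other than compound 1 replicate 1 (−0.17 to −0.28, edgeR adjusted p = 0.0661 to 0.182). LIFR was not called (log2 0.13 ± 0.13, edgeR adjusted p = 0.403).

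Levels can be ordered between genes only per length, as CPM per kb of the deposited gene length. STAT3 stood highest of the 10 genes in every group, at 37.8 ± 0.857 CPM per kb with DMSO, 35.7 ± 3.06 with compound 1 and 54.9 ± 3.79 with SCH772984 (SD, n = 3 each). With DMSO, IL6ST (19.1) followed, then LIF (16.1) and OSMR (15.1), whose libraries overlapped, then CLCF1 (7.16), then SOCS3 (2.96) and LIFR (2.57), which overlapped, then IL6R (1.32) and IL11 (0.434), with IL6 at 0. With compound 1 the order of the means was the same, and there the libraries of LIF (17) overlapped those of IL6ST (21.8) and of OSMR (14.1), while SOCS3 (3.33) lay above LIFR (2.30) in all libraries.

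With SCH772984 the order changed below IL6ST, and LIF moved from rank 3 to rank 7. The means were 18.1 for IL6ST, 4.68 for OSMR, 2.48 for LIFR, 1.98 for SOCS3, 1.76 for CLCF1, 1.17 for LIF, 0.864 for IL11 and 0.553 for IL6R. SOCS3 overlapped CLCF1 and LIF overlapped IL11, and the other neighbors were separated in all libraries. LIF over LIFR within a library was thus 5.05 to 7.36 with DMSO, 5.84 to 9.32 with compound 1 and 0.383 to 0.546 with SCH772984, all as ratios of CPM per kb.

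**Figure D3:**
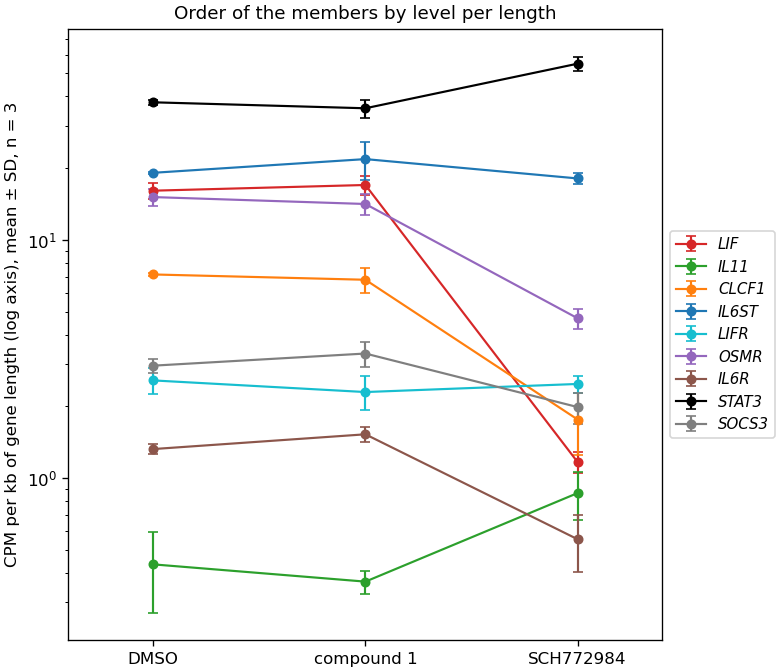
Mean CPM per kb of gene length (log axis) ± SD over 3 libraries of the 9 genes with a count, by group, with lines joining the same gene. LIF drops from rank 3 with DMSO to rank 7 with SCH772984, while STAT3 keeps rank 1 and IL6ST rank 2.

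Other ratios of CPM per kb set the receptor chains side by side. OSMR over LIFR was 4.76 to 6.73 with DMSO, 5.67 to 6.99 with compound 1 and 1.68 to 2.23 with SCH772984, so the level of OSMR came closer to that of LIFR without falling below it. OSMR over IL6ST went from 0.721 to 0.860 with DMSO to 0.222 to 0.297 with SCH772984, and was 0.570 to 0.766 with compound 1. LIFR over IL6ST was 0.123 to 0.152 with DMSO, 0.132 to 0.146 with SCH772984 and 0.101 to 0.110 with compound 1. The compound 1 libraries thus lay below the others for LIFR over IL6ST, a ratio that uses no scaling between libraries. Neither LIFR nor IL6ST was called with compound 1 against DMSO. The ratios were picked by hand and not tested, and how often other gene pairs separate this way was not computed. STAT3 over SOCS3 was 12.1 to 13.4 with DMSO, 9.39 to 12.5 with compound 1 and 23.9 to 32.3 with SCH772984, where all libraries lay above those of the other groups.

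CTF1, CNTF, OSM, IL27 and EBI3 are further ligand genes of the family. CTF1, cardiotrophin 1, which like LIF signals through LIFR and gp130, rose from 5.77 ± 0.643 to 9.61 ± 0.343 CPM (SD, n = 3 each, log2 0.76 ± 0.18, edgeR adjusted p = 2.00e-04). With compound 1 it stood lower in all libraries, at 4.37, 3.68 and 2.80 CPM, but the log2 difference of −0.66 ± 0.23 was not called (edgeR adjusted p = 0.180), although it passed the unadjusted threshold, as 7.69% of all genes tested did in that direction. Without compound 1 replicate 1, 1 of these and the 4 ligand genes above was called lower, compared with 6.10% of all genes tested without that library. OSM had 0 counts throughout, IL27 and EBI3 no more than 2 in any library, and CNTF 6 to 12. The SCH772984 libraries of CNTF lay below all DMSO libraries in CPM, but the log2 difference of −0.89 ± 0.47 was not called (edgeR adjusted p = 0.0833), and CNTF passed the filter only through DMSO.

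Counted per length, LIF stood above CTF1 in all DMSO libraries, at 16.1 ± 1.22 compared with 3.47 ± 0.386 CPM per kb (SD, n = 3 each), and so did CLCF1, at 7.16 ± 0.113 CPM per kb. With SCH772984 the order was turned around in all 3 libraries. CTF1 was at 5.78 ± 0.206 CPM per kb, CLCF1 at 1.76 ± 0.515 and LIF at 1.17 ± 0.119. With compound 1, LIF (17 ± 1.5) and CLCF1 (6.80 ± 0.825) stood above CTF1 (2.17 ± 0.471 CPM per kb).

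**Figure D4:**
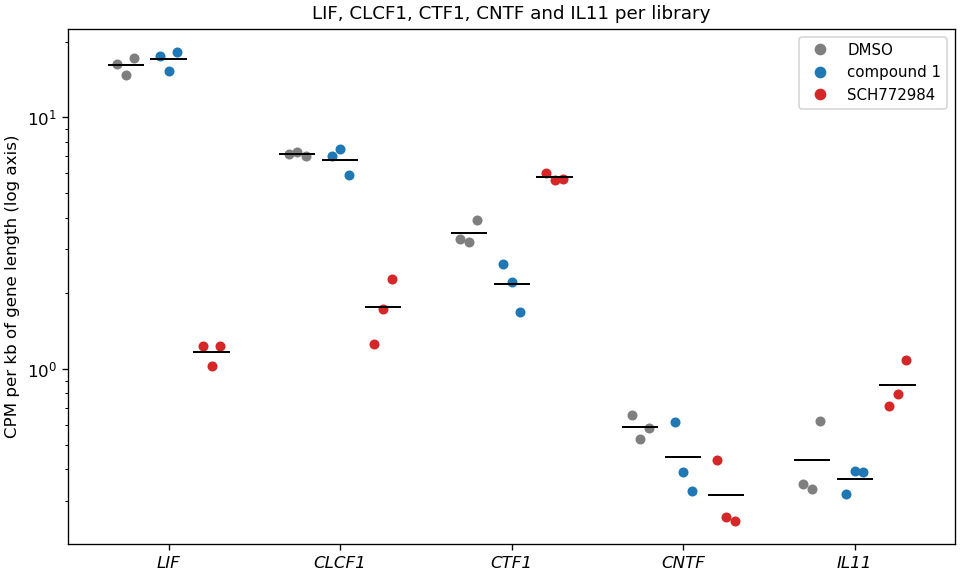
CPM per kb of gene length (y axis, log scale) of 5 ligand genes in each of the 9 libraries, with DMSO in gray, compound 1 in blue, SCH772984 in red and a black line at each mean of 3 libraries. The SCH772984 points lie below all others for LIF and CLCF1 and above all others for CTF1 and IL11.

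Among the receptor chains outside the 10 genes, IL11RA, the receptor of IL11, rose with SCH772984 as IL11 itself did. It had 18, 23 and 15 counts with DMSO, 22, 21 and 16 with compound 1 and 85, 78 and 141 with SCH772984 (log2 1.94 ± 0.24, edgeR adjusted p = 1.73e-09). IL27RA fell by 0.23 ± 0.07 on the log2 scale (edgeR adjusted p = 0.00520), with libraries that overlapped, and CNTFR was not called. Of all 7 chains tested, 1 was higher, 3 were lower and 3 were not called, compared with 37.2% higher and 35.5% lower over all genes tested, and the median log2 fold change was −0.06. With compound 1, 0 of the 7 chains were called by edgeR or DESeq2 and 0 at an unadjusted p, with a median of 0.17.

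Of 9 JAK and STAT genes other than STAT3 (JAK1, JAK2, JAK3, TYK2, STAT2, STAT4, STAT5A, STAT5B and STAT6), 7 were tested against DMSO. With SCH772984, 4 rose, 0 fell (0 also at an unadjusted p and by DESeq2) and 3 were not called, compared with 37.2% higher and 35.5% lower over all genes tested, and the median log2 fold change was 0.40. The kinases JAK1 (0.46 ± 0.07, edgeR adjusted p = 1.29e-07) and TYK2 (0.40 ± 0.07, edgeR adjusted p = 4.63e-06), both of which attach to gp130, rose as STAT3 did. STAT2, a factor of interferon signaling, rose most of the 7, from 15.3 ± 2.13 to 49.6 ± 6.14 CPM (SD, n = 3 each, log2 1.73 ± 0.11, edgeR adjusted p = 2.01e-18). STAT6, the factor of IL4 signaling, rose from 61.6 ± 0.811 to 118 ± 7.33 CPM (log2 0.96 ± 0.07, edgeR adjusted p = 5.10e-16). STAT5A (−0.55 ± 0.37), STAT5B (0.01 ± 0.08) and JAK2 (0.03 ± 0.17) were not called. With compound 1, STAT6 alone of the 7 tested was called, at 78.9, 78.4 and 76.3 CPM compared with 62.5, 61.2 and 61.0 CPM with DMSO (log2 0.36 ± 0.08, edgeR adjusted p = 0.0458), where 0.490% of all genes tested were called higher and 0.374% lower. That count of 1 became 0 when any single library other than compound 1 replicate 1 was left out. Against compound 1, 8 were tested with SCH772984, of which 5 were higher, 0 lower by edgeR and by DESeq2 (1 at an unadjusted p, and 1 without SCH772984 replicate 2 or compound 1 replicate 1) and 3 not called, with a median of 0.48 (33.7% of all genes tested there were called higher and 32.6% lower). JAK3, at 4, 11 and 3 counts with compound 1 and 9, 18 and 35 with SCH772984, was among the higher genes at these low counts (edgeR adjusted p = 0.0305). It fell short of the filter's minimum in libraries of both groups.

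Of the 17 inhibitors of this pathway other than SOCS3, 13 were tested, of which 7 fell with SCH772984, 2 rose and 4 were not called, compared with 37.2% higher and 35.5% lower over all genes tested, and the median log2 fold change was −0.39. SOCS4 (−0.75 ± 0.10), SOCS6 (−0.60 ± 0.07) and SOCS7 (−0.39 ± 0.08), relatives of SOCS3, were called lower, and SOCS2 fell from 1.37 ± 0.169 to 0.364 ± 0.118 CPM (SD, n = 3 each), having passed the filter only through the DMSO libraries. The phosphatases PTPN11 (−1.08 ± 0.07, edgeR adjusted p = 2.63e-19), PTPN2 (−0.77 ± 0.10) and PTPN1 (−0.38 ± 0.08) were called lower too. PTPN11 encodes SHP2, which binds gp130 at the site SOCS3 also uses, and is known to pass signals to ERK as well. PIAS3, a protein that binds STAT3, rose (0.44 ± 0.08, edgeR adjusted p = 6.47e-06), as did PIAS2 (0.19 ± 0.08, edgeR adjusted p = 0.0315). SOCS1, SOCS5, PIAS1 and PIAS4 were not called. The higher count of 2 was 1 without SCH772984 replicate 2, without SCH772984 replicate 3 and by DESeq2. With compound 1, 0 of 13 were called by edgeR or DESeq2, and 3 were lower at an unadjusted p, compared with 7.69% of all genes. Against compound 1, 12 were tested with SCH772984, with 2 higher (1 without SCH772984 replicate 2 or 3 and by DESeq2, 4 with library-size scaling), 6 lower and a median of −0.31, compared with 33.7% higher and 32.6% lower over all genes tested there.

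**Figure D5:**
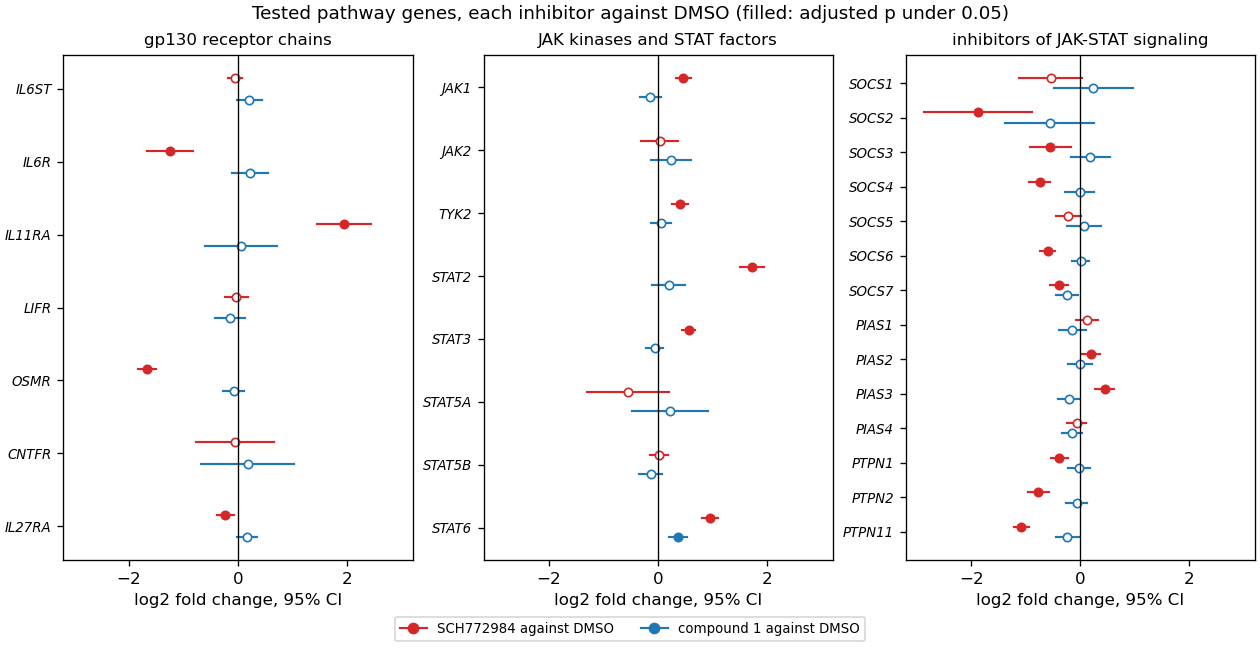
Log2 fold changes against DMSO (x axis) with 95% confidence intervals for the tested receptor chains, JAK and STAT genes and pathway inhibitors, with SCH772984 in red, compound 1 in blue and filled points at an adjusted p under 0.05. STAT6 is the one filled compound 1 point, whereas SCH772984 has filled points on both sides of 0, from −1.88 (SOCS2, which passed the filter only through the DMSO libraries) to 1.94 (IL11RA).

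Genes known from other settings to respond to STAT3 did not move as a block. Besides the members OSMR, IL6ST, SOCS3 and STAT3 itself, 28 such genes were listed, of which 17 were tested with SCH772984, 4 higher, 11 lower and 2 not called, compared with 37.2% higher and 35.5% lower over all genes tested, and the median log2 fold change was −0.58. CEBPD (2.09 ± 0.18, edgeR adjusted p = 8.11e-14) and IRF1 (1.88 ± 0.13, edgeR adjusted p = 4.06e-17), transcription factors of the inflammatory response, rose. ICAM1, an adhesion molecule, had 3, 0 and 6 counts with DMSO and 19, 20 and 28 with SCH772984 (edgeR adjusted p = 1.06e-04), and passed the filter only through the latter group, as it did against compound 1 (3, 4 and 7 counts). TIMP1, an inhibitor of metalloproteinases (−1.91 ± 0.07), BIRC5, the survival factor survivin (−1.78 ± 0.07), and MYC (−1.57 ± 0.06, edgeR adjusted p = 1.08e-25) fell. Many of these genes are also known to respond to ERK signaling or to the cell cycle, and STAT3 binding was not measured. The acute-phase genes FGA, FGB, FGG, CRP and LBP had 0 counts in every library. With compound 1, 0 of 17 were called by edgeR or DESeq2, and 1 was higher and 2 lower at an unadjusted p (7.35% and 7.69% of all genes). Without compound 1 replicate 1, 2 genes of this list were higher and 3 lower, the 4 members in it included, compared with 3.46% and 6.10% of all genes tested without it. Against compound 1, 5 of 17 were higher and 10 lower with SCH772984, compared with 33.7% and 32.6% of all genes, with a median of −0.59. The furthest up there were CEBPD (1.91 ± 0.17), ICAM1 (1.79 ± 0.43) and IRF1 (1.72 ± 0.15), and the furthest down TIMP1 (−2.06 ± 0.12), BIRC5 (−1.79 ± 0.09) and VEGFA, an angiogenic factor (−1.44 ± 0.10).

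Output genes of the MAPK pathway were set beside the ERK inhibitor label. Their list was chosen with earlier results of these data known, so it is no independent check. Of 16 listed, 15 were tested with SCH772984, and 7 of these (DUSP5, DUSP6, ETV1, ETV4, ETV5, FOSL1 and EGR1) passed the filter only through the group where they are high, DMSO here and compound 1 in the comparison with it. The 8 that reached the minimum in both groups were all lower, compared with 35.5% of all genes tested, with a median log2 fold change of −2.23. SPRY4 (−6.81 ± 0.11) and ETV5 (−6.54 ± 0.15) fell furthest of those with counts in each SCH772984 library, and DUSP6 went from 40, 25 and 51 counts with DMSO to 0, 1 and 0. With compound 1, 0 of 15 were called by edgeR or DESeq2, with a median of 0.01, and 3 were higher and 2 lower at an unadjusted p (7.35% and 7.69% of all genes tested). Without compound 1 replicate 1, 1 was called higher and 2 lower, compared with 3.46% and 6.10% of all genes tested without it. Against compound 1 the same 8 were all lower with SCH772984, compared with 32.6% of all genes tested, with a median of −2.35.

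The genes whose pattern was most like that of LIF were found by the root mean square difference in log2 CPM, centered on each gene's mean, over 9 libraries and 9956 protein-coding genes of at least 5 CPM. Among the nearest were ADORA1 (0.142), an adenosine receptor, NOG (0.171), an antagonist of bone morphogenetic proteins, MMP1 (0.196), a collagenase, and PLAUR (0.259), the urokinase receptor. Their log2 fold changes with SCH772984 against DMSO were −3.54, −3.59, −3.79 and −4.04, and with compound 1 none of these 4 was called. Nearest to SOCS3 by the same measure were C16orf45 (0.0817), TDP1 (0.0874), EMC9 (0.0891), IRF2BPL (0.0932) and VPS37C (0.0946), with log2 fold changes of −0.42 to −0.69 with SCH772984. The genes near LIF and near SOCS3 were picked for likeness over these same libraries, so their fold changes follow from the choice.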

How the data were processed

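RNA-Seq read counts per gene were used as deposited by the authors, a single table of whole-number counts without normalization for 58735 genes and 9 libraries. The submitters' processing notes name HISAT2 (2.0.5), featureCounts (1.5.0-p3) and hg38, and the strand setting is not given in the sources used here. Identifiers, positions and strands of all 58735 genes matched GENCODE release 29. The table held 0 spike-in RNAs. The members and all gene lists were chosen by hand with earlier results of these data known.

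Libraries were grouped by their titles, 3 per group. Each pair of groups was fitted on its own 6 libraries with edgeR 4.0.16 in R 4.3.3 (TMM, filterByExpr with a minimum count of 10 and minimum total of 15, robust quasi-likelihood test), and a gene was called at a Benjamini-Hochberg adjusted p under 0.05 over all genes tested. The study gives p under 0.05 with no adjustment named, and that rule was an alternative. CPM used TMM factors over all 9 libraries, and CPM per kb the deposited gene length. Confidence intervals are at 95%. The code was tested on simulated data. Named were the 10 members, all tested genes of the ligand, receptor, JAK-STAT and inhibitor lists, the 3 largest called changes per direction and comparison of the STAT3 and MAPK lists, and the 5 genes nearest in pattern to LIF and to SOCS3. Some genes that this rule would name are not reported here, and the gene lists were taken without them. Genes cited with overlapping exons, cell type markers and genes with 0 counts were named beside these. Alternatives were RLE factors, library-size scaling, no or a stricter filter, all 9 libraries in one fit, a replicate block, DESeq2 1.42.0, a 2-fold minimum, protein-coding genes only and leaving out each library. IL6 had 0 counts and IL11 at most 43 in any library.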

Additional observations from a re-analysis of the deposited data

How the results depend on the processing

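No call among the 10 genes changed direction under any alternative, and of 422 recomputed log2 fold changes 402 kept their side of the threshold, 18 lost the call and 2 gained it. With SCH772984 against DMSO, 1 gene in place of 2 was higher when at least 10 counts were required in every library, which removes IL11, and 1 when a 2-fold change was required, which removes STAT3. The 2-fold minimum also removes SOCS3, leaving 4 lower in place of 5. Leaving out single libraries gave 1 to 2 higher and 5 to 5 lower. With compound 1 against DMSO these gave 0 to 1 higher and 0 to 0 lower. The 1 was IL6ST without compound 1 replicate 1, and at an unadjusted p without that library, an alternative chosen after seeing the data, 1 gene was higher again. With SCH772984 against compound 1 the counts were 2 to 2 higher and 5 to 6 lower, with 1 higher under the stricter filter and 1 under the 2-fold minimum, which removes SOCS3 and IL6ST there and leaves 4 lower in place of 6.

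Deviations from the group means correlated at −0.0734 to 0.120 between same-numbered libraries and at −0.106 to 0.160 between differently numbered ones. With 3 libraries per group, these values cannot decide whether the numbers pair the samples. With a replicate block 2 genes were higher and 5 lower with SCH772984 against DMSO, 0 and 0 with compound 1, and 2 and 5 with SCH772984 against compound 1. The block took the genes of the whole table called with compound 1 from 63 higher and 48 lower to 193 and 219, no filter on low counts to 189 and 228, and DESeq2 to 117 and 119.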
